A study of Homo sapiens with 9 samples.

Results

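The contractile genes of mammary myoepithelium and the caveolin gene CAV1 were followed across 9 MCF10A libraries. The 10 members, ACTA2, TAGLN, MYLK, MYL9, CNN1, CNN2, TPM1, TPM2, CALD1 and CAV1, were listed by name and found by matching the Ensembl gene IDs of the files to symbols. They are 10 of the 41857 genes in each library. MCF10A is an established line of human breast epithelium that forms no tumours, kept here with horse serum, epidermal growth factor, hydrocortisone, cholera toxin and insulin. Poly(A) RNA was sequenced from cells expressing deltaNp63alpha, cells expressing deltaNp63beta and cells with vector only, in 3 biological replicates of each. Doxycycline was given to all 9 cultures at 500 ng/mL for 24 h, so the vector cells had it too, and the labels give the genotype of all as WT. Both isoforms are forms of human p63 that lack the N-terminal transactivation domain, and they differ in their C-terminal part. The labels do not say whether a line is a single clone, and no library without doxycycline was analysed here.

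Myoepithelial cells form the basal layer of mammary ducts and alveoli and contract to move milk. They build a smooth-muscle-type apparatus in which calcium signals activate myosin light chain kinase (MYLK), which phosphorylates the regulatory myosin light chain (MYL9) and lets myosin pull on actin filaments. Tropomyosins, caldesmon and calponins sit on those filaments and regulate them. Many of these genes are known targets of serum response factor (SRF), which binds a DNA element named the CArG box. Caveolins coat caveolae, small pits of the plasma membrane that are common in contractile cells. The transcription factor p63 is itself a marker of basal and myoepithelial cells.

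RefSeq promoter windows (GRCh38.p14), the 250 bases before a transcription start, were read for 8 of the 10 members, 15 starts in all. MYL9 and TAGLN had no entry. The CArG box was searched on both strands, as CC, then 6 bases that are A or T, then GG. A looser form allowed 1 of those 6 bases to be G or C, and was added after the windows had been read. The strict form stood in 1.16% of 35116 promoter windows of this length and the loose form in 7.04%. The strict form was found for CNN2 and MYLK, and with the loose form ACTA2 and CALD1 were added. The ACTA2 sites are at 1 of its 2 starts, 38566 bases after the annotated beginning of the gene, and the CALD1 site is at 1 of its 4 starts, which lies outside the annotated gene, upstream of it. The windows below show the sites in capitals, written 5′ to 3′ on the strand of the gene. CNN1, nearly silent, is shown as the paralog of CNN2 that held neither form. CAV1, TPM1 and TPM2 held neither form too and were expressed, with vector means of 14643, 1616 and 5549. A link between sites and levels was not tested.
ACTA2: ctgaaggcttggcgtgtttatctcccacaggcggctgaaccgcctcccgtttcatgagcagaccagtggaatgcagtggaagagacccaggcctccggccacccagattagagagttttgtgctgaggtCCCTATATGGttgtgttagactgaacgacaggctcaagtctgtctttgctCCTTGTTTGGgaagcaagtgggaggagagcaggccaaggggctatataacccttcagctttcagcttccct
MYLK: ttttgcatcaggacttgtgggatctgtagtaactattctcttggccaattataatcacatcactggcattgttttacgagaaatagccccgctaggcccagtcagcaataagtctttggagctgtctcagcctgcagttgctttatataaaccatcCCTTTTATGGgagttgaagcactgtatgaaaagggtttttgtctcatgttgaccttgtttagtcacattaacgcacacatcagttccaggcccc
CNN2: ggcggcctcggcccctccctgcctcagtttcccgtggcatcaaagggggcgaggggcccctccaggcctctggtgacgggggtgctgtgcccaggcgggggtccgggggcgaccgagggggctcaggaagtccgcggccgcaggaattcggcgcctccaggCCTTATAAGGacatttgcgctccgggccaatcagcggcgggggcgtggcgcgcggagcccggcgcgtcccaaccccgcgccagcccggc
CNN1: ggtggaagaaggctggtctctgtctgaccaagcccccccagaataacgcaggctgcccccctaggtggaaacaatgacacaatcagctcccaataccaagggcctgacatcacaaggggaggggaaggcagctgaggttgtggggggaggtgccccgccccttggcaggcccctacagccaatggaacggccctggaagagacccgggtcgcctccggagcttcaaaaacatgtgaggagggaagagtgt

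The ACTA2 window is chr10:88952774-88953023 on the minus strand and holds 2 loose sites, CCCTATATGG and CCTTGTTTGG, whose first bases lie at -121 and -71 from the start. The MYLK window is chr3:123620549-123620798 on the minus strand, with CCTTTTATGG at -94. That MYLK start, the only one read, lies 263783 bases after the annotated beginning of the gene and 10499 bases before its end. It is therefore not the start of the long kinase, whose promoter was not read. The CNN2 window is chr19:1026358-1026607 on the plus strand, with CCTTATAAGG at -89. The CNN1 window is chr19:11538601-11538850 on the plus strand. A match describes letters in a window and shows no binding.

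The values are normalized estimated counts per gene, and the libraries summed to between 22483140 and 23213870. The most frequent value under 3 in each library was taken as its step, the value of 1 fragment. On that reading the depth before normalization was roughly 20.3 M to 24.4 M fragments (M, 10 to the power of 6). TP63, the gene of the introduced isoforms, was between 4426 and 6983 in deltaNp63alpha libraries and between 4183 and 6719 in deltaNp63beta libraries. In vector libraries it was between 259 and 332. The gene-level value does not separate introduced transcripts from those of the cells' own gene. A gene was tested where 3 or more libraries reached a value of 10, which left 15108 genes. CNN1 was the member that did not pass. Each change is given as a log2 fold change ± SE from limma, fitted to log2(value + 1), with p adjusted over all genes tested and called under 0.05. In bulk RNA, fewer cells of a type and less RNA per cell cannot be told apart.

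Of the 9 members tested, 4 were higher and 2 lower in deltaNp63alpha cells than in vector cells, where 14.5% of all genes tested were called, 8.13% higher and 6.37% lower. In deltaNp63beta cells 4 were higher and 4 lower than in vector cells, where 41.3% of all genes tested were called, 21.8% higher and 19.5% lower. TAGLN, CNN2 and CALD1 rose with both isoforms, and TPM2 fell with both. ACTA2 was called lower with both, with deltaNp63beta only at the threshold (limma adjusted p = 0.0497). MYL9 rose with deltaNp63beta, while MYLK and CAV1 fell with it. CAV1 was called higher with deltaNp63alpha, close to the threshold (limma adjusted p = 0.0472). The comparisons share the vector libraries. The members' median log2 fold change was 0.22 for deltaNp63alpha and 0.01 for deltaNp63beta, against -0.01 and -0.00 over all genes tested.

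**Figure D1:**
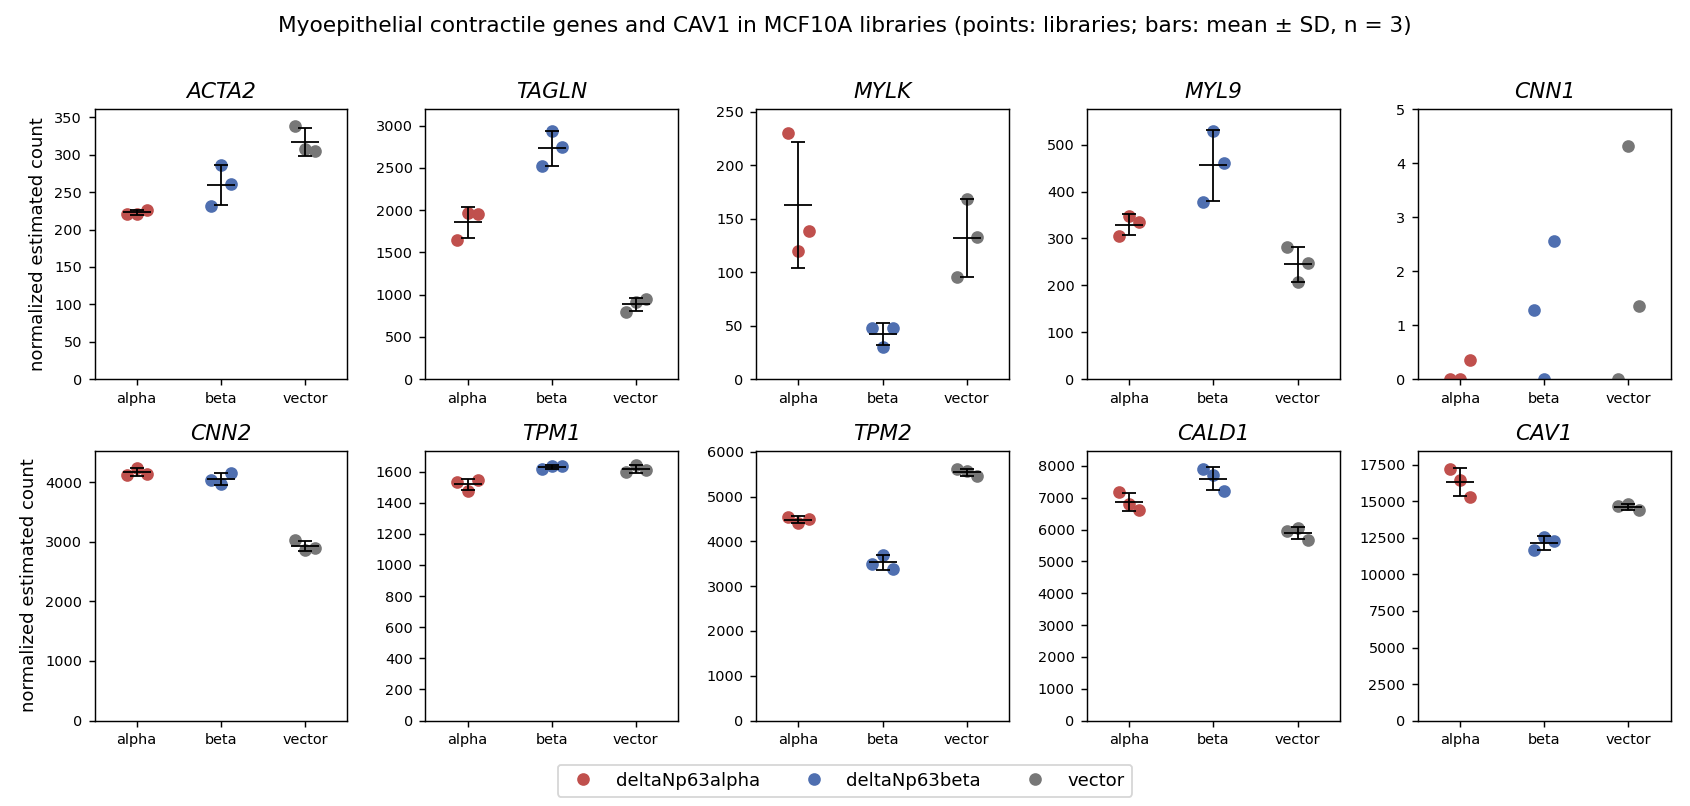
Normalized estimated counts (y axis, linear from 0) of the 10 members in each deltaNp63alpha, deltaNp63beta and vector library; points are libraries and bars are mean ± SD of n = 3, not drawn for CNN1. TAGLN stands highest in deltaNp63beta libraries, between 2522 and 2931, and MYLK lowest there, between 30.0 and 48.1.

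ACTA2 encodes smooth muscle alpha-actin, the classical myoepithelial marker (ENSG00000107796, GRCh38 chromosome 10, 88935074 to 88991339, minus strand). Its values were 220.9, 221.1 and 226.8 in deltaNp63alpha libraries, 231.5, 286.2 and 261.5 in deltaNp63beta libraries, and 338.1, 308.3 and 304.9 in vector libraries. Every vector library stood above every library of either isoform. ACTA2 fell with deltaNp63alpha by 0.50 ± 0.11 (adjusted p = 0.00892). With deltaNp63beta the change was -0.29 ± 0.11 with an adjusted p = 0.0497 in limma, right at the threshold. That call was lost under 12 of 20 other settings (adjusted p from 0.0609 to 0.169 where lost, and from 0.026 to 0.169 over all 20), among them leaving out any 1 library except deltaNp63beta replicate 2. ACTA2 shares most of its coding sequence with the cytoplasmic actin genes ACTB and ACTG1. ACTB averaged 101250 ± 4743 in deltaNp63alpha libraries, 92225 ± 2007 in deltaNp63beta libraries and 97694 ± 4471 in vector libraries (SD, n = 3 each), so fragments divided between them could weigh on ACTA2. On the opposite strand ACTA2 overlaps STAMBPL1 and FAS, and 7 of the 10 members overlap some gene there. No source used here says whether the libraries keep strand, so reads of such pairs may not be separable.

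TAGLN encodes transgelin, an actin-binding protein also called SM22-alpha (ENSG00000149591, GRCh38 chromosome 11, 117199321 to 117204782, plus strand). It held 1646, 1964 and 1955 in deltaNp63alpha libraries, 2523, 2931 and 2741 in deltaNp63beta libraries, and 791.2, 911.7 and 944.8 in vector libraries. The 3 groups did not overlap, with deltaNp63beta highest and vector lowest. TAGLN rose by 1.07 ± 0.09 with deltaNp63alpha (adjusted p = 1.32e-05) and by 1.63 ± 0.09 with deltaNp63beta (adjusted p = 1.07e-07, both limma). That is a ratio to vector of 2.10 for deltaNp63alpha and 3.10 for deltaNp63beta. It was the largest rise among the members in both comparisons, while ACTA2 was lower in the same libraries, with deltaNp63beta only at the threshold.

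MYLK, the myosin light chain kinase gene (ENSG00000065534, GRCh38 chromosome 3, 123610049 to 123884331, minus strand), went the other way with deltaNp63beta. It held 230.2, 119.8 and 138.5 in deltaNp63alpha libraries, 48.1, 30.0 and 47.6 in deltaNp63beta libraries, and 95.4, 168.1 and 132.8 in vector libraries. The deltaNp63beta libraries lay below all others, while deltaNp63alpha and vector libraries overlapped. MYLK fell by 1.63 ± 0.29 with deltaNp63beta (limma adjusted p = 0.00100), a vector level 3.09 times that of deltaNp63beta. With deltaNp63alpha the difference from vector was 0.28 ± 0.29 (95% interval -0.37 to 0.92, limma adjusted p = 0.602), and deltaNp63alpha replicate 1 was the highest of the 9 libraries. The gene has 9 coding transcripts in the basic set of GENCODE release 29, from 678 to 10027 bases, and the gene-level value does not separate the long kinase from the short form that starts near the end of the gene.

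MYL9, the regulatory light chain that MYLK phosphorylates (ENSG00000101335, GRCh38 chromosome 20, 36541484 to 36551447, plus strand), was highest with deltaNp63beta. It held 304.9, 347.9 and 334.8 in deltaNp63alpha libraries, 378.6, 529.8 and 461.2 in deltaNp63beta libraries, and 281.7, 207.0 and 247.4 in vector libraries. The 3 groups did not overlap. MYL9 rose by 0.89 ± 0.14 with deltaNp63beta (limma adjusted p = 0.000484). With deltaNp63alpha the difference of 0.43 ± 0.14 was not called (limma adjusted p = 0.0722). It passed in 3 of 20 other settings, library weights and leaving out deltaNp63beta replicate 1 or vector replicate 1 (adjusted p from 0.0461 to 0.0475 where it passed, and up to 0.227 over all 20).

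CNN1 and CNN2 encode calponins, which bind actin and hold back myosin activity. CNN1, the smooth muscle form (ENSG00000130176, GRCh38 chromosome 19, 11538717 to 11550323, plus strand), was close to silent in every group. It was listed at 0, 0 and 0.35 in deltaNp63alpha libraries, 1.28, 0 and 2.56 in deltaNp63beta libraries, and 0, 4.32 and 1.35 in vector libraries. It was not tested, and no fold is given. CNN2, the widely expressed form (ENSG00000064666, GRCh38 chromosome 19, 1026581 to 1039068, plus strand), held 4123, 4245 and 4144 in deltaNp63alpha libraries, 4041, 3969 and 4160 in deltaNp63beta libraries, and 3028, 2856 and 2904 in vector libraries. All 6 isoform libraries stood above all vector libraries. CNN2 rose by 0.51 ± 0.04 with deltaNp63alpha (adjusted p = 9.06e-06) and by 0.47 ± 0.04 with deltaNp63beta (adjusted p = 4.5e-06, both limma).

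TPM1 and TPM2 encode tropomyosins, which lie along actin filaments and set the access of myosin. TPM2 (ENSG00000198467, GRCh38 chromosome 9, 35681992 to 35690121, minus strand) held 4552, 4413 and 4495 in deltaNp63alpha libraries, 3496, 3702 and 3391 in deltaNp63beta libraries, and 5619, 5563 and 5464 in vector libraries. The groups did not overlap and ran from deltaNp63beta at the bottom to vector at the top. TPM2 fell by 0.31 ± 0.04 with deltaNp63alpha (adjusted p = 0.000504) and by 0.65 ± 0.04 with deltaNp63beta (adjusted p = 3.64e-07, both limma). TPM1 (ENSG00000140416, GRCh38 chromosome 15, 63042632 to 63071915, plus strand) averaged 1518 ± 37.1 in deltaNp63alpha libraries, 1630 ± 13.7 in deltaNp63beta libraries and 1616 ± 24.1 in vector libraries (SD, n = 3 each). Its differences from vector were -0.09 ± 0.05 for deltaNp63alpha (95% interval -0.19 to 0.01, adjusted p = 0.245) and 0.01 ± 0.05 for deltaNp63beta (95% interval -0.09 to 0.12, adjusted p = 0.856, both limma). The tropomyosin genes share sequence and have many alternative transcripts, 17 coding ones for TPM1, so fragments could be divided between genes and a shift between transcripts would not show.

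CALD1 encodes caldesmon, an actin-binding inhibitor of myosin (ENSG00000122786, GRCh38 chromosome 7, 134744252 to 134970728, plus strand). It held 7177, 6812 and 6611 in deltaNp63alpha libraries, 7906, 7703 and 7209 in deltaNp63beta libraries, and 5962, 6061 and 5686 in vector libraries. Every isoform library stood above every vector library. CALD1 rose by 0.22 ± 0.05 with deltaNp63alpha (adjusted p = 0.0104) and by 0.37 ± 0.05 with deltaNp63beta (adjusted p = 0.000104, both limma). The first of these calls was lost in 1 of 20 other settings, limma without trend or robust moderation (adjusted p = 0.0557; from 0.00547 to 0.0557 over the 20).

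CAV1, the main structural protein of caveolae (ENSG00000105974, GRCh38 chromosome 7, 116524785 to 116561184, plus strand), moved in opposite directions. It held 17230, 16482 and 15283 in deltaNp63alpha libraries, 11648, 12586 and 12278 in deltaNp63beta libraries, and 14676, 14825 and 14428 in vector libraries. The groups did not overlap, and vector lay in the middle. CAV1 fell by 0.27 ± 0.05 with deltaNp63beta (limma adjusted p = 0.000827), a call that held in all 20 other settings. With deltaNp63alpha the change was 0.16 ± 0.05 with a limma adjusted p = 0.0472. That call was lost in 11 of 20 other settings (adjusted p from 0.0524 to 0.248 where lost, and from 0.0176 over all 20), among them equal totals, quantile normalization, the replicate block and the removal of any 1 vector library, of deltaNp63beta replicate 2, or of 1 of the deltaNp63alpha replicates 1 and 2.

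**Figure D2:**
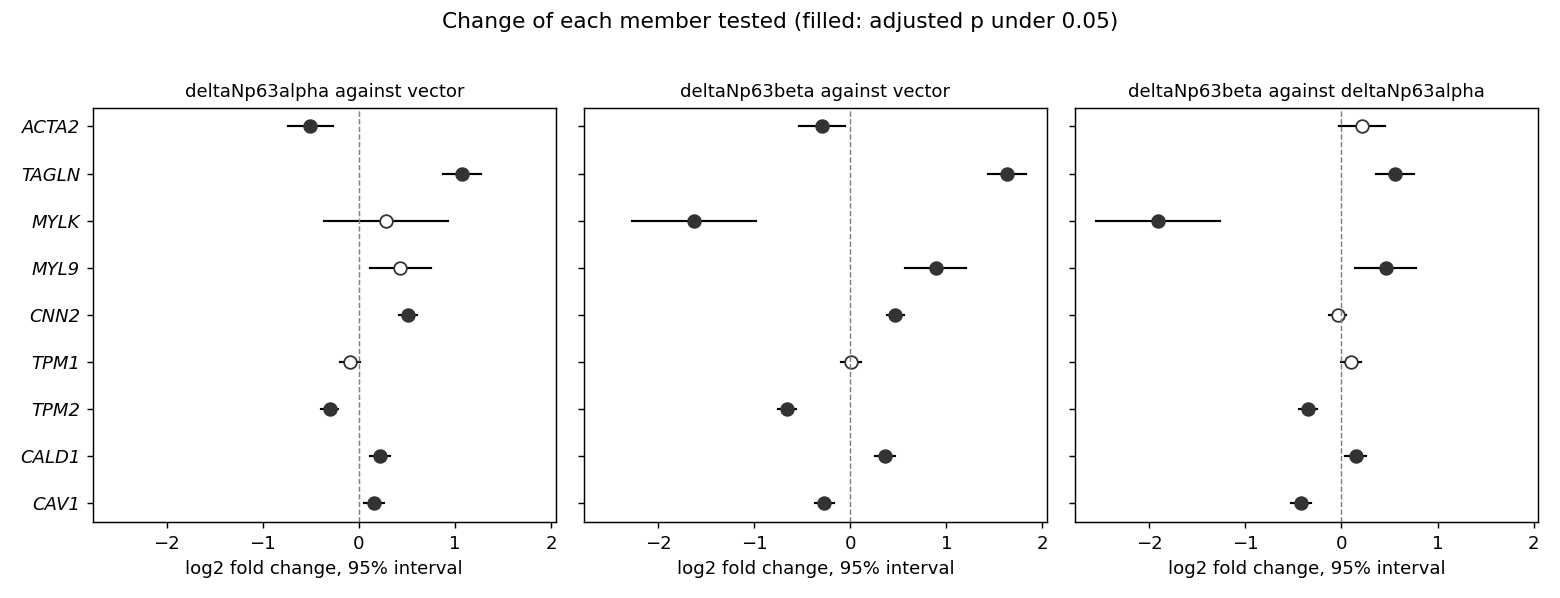
Log2 fold change with 95% interval (x axis) of the 9 members tested, for deltaNp63alpha against vector, deltaNp63beta against vector and deltaNp63beta against deltaNp63alpha; filled points have an adjusted p under 0.05. TAGLN lies right of 0 and TPM2 left of 0 in all 3 comparisons, and MYLK lies furthest left in both comparisons of deltaNp63beta.

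The direct comparison of the isoforms asked which members deltaNp63beta held at another level than deltaNp63alpha. Of the 9 members, 3 were higher and 3 lower with deltaNp63beta, where 32.9% of all genes tested were called, 17.4% higher and 15.5% lower. MYLK differed most, at -1.91 ± 0.29 (adjusted p = 0.000507), and the deltaNp63alpha level was 3.75 times that of deltaNp63beta. CAV1 was lower by -0.42 ± 0.05 (adjusted p = 4.87e-05) and TPM2 by -0.35 ± 0.04 (adjusted p = 9.91e-05, all limma). TAGLN was higher by 0.56 ± 0.09 (adjusted p = 0.000682).

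MYL9 and CALD1 were higher with deltaNp63beta than with deltaNp63alpha, with calls that depended on the settings. MYL9 differed by 0.46 ± 0.14 (limma adjusted p = 0.0307), and the call was lost in 7 of 20 other settings (adjusted p from 0.0505 to 0.119 where lost, from 0.0109 over all 20). These were the replicate block, limma without trend, and leaving out deltaNp63beta replicate 2 or 3 or any 1 deltaNp63alpha library. CALD1 differed by 0.15 ± 0.05 (limma adjusted p = 0.0355), and the call was lost in 8 of 20 settings (adjusted p from 0.0583 to 0.132 where lost, from 0.0123 over all 20). Among these were equal totals, quantile normalization, and leaving out deltaNp63beta replicate 1 or 2 or deltaNp63alpha replicate 2 or 3. The members not called were CNN2 at -0.04 ± 0.04 (95% interval -0.13 to 0.05), TPM1 at 0.10 ± 0.05 (interval -0.00 to 0.21) and ACTA2 at 0.21 ± 0.11 (interval -0.02 to 0.45).

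Levels were set against each other per kilobase, using the median length of each gene's coding transcripts in the GENCODE basic set. In vector libraries the order ran CAV1, TPM2, CALD1, TPM1, CNN2, TAGLN, ACTA2, MYL9, MYLK and CNN1, and no neighbours overlapped between libraries. CAV1 stood at 6441 ± 387 per kb in deltaNp63alpha libraries, 4800 ± 189 in deltaNp63beta libraries and 5775 ± 79.0 in vector libraries (SD, n = 3 each). The classical markers were far lower. ACTA2 stood at 165.3 ± 2.49 per kb with deltaNp63alpha, 192.5 ± 20.3 with deltaNp63beta and 235.1 ± 13.5 with vector, and MYLK at 22.4 ± 8.11, 5.76 ± 1.41 and 18.1 ± 4.99 in the same order.

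The order differed between the groups in a few places. TAGLN stood at 1512 ± 148 per kb with deltaNp63alpha, 2226 ± 167 with deltaNp63beta and 719 ± 65.9 with vector. With deltaNp63alpha it overlapped TPM1, and MYL9 overlapped ACTA2 in both isoform groups. With deltaNp63beta the libraries of TPM2 and CALD1 overlapped. The choice of length matters for genes with many transcripts: with the longest transcript in place of the median, TPM1 stood below CNN2 in vector libraries, at 408 against 1335 per kb.

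**Figure D3:**
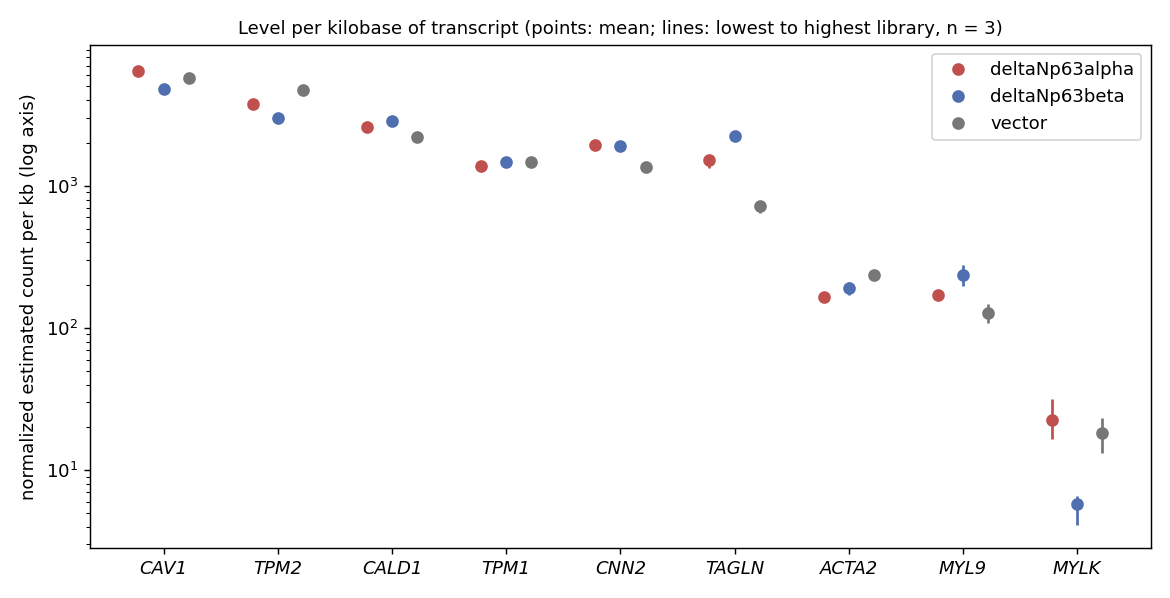
Normalized estimated count per kilobase of median coding transcript (y axis, log scale) for 9 members, CNN1 left out; points are group means and lines run from the lowest to the highest of 3 libraries. CAV1 is highest in each group, and MYLK is lowest, with deltaNp63beta below the other groups.

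Partners of the apparatus were described from a list of 33 actin, myosin and filament genes, 29 of them tested. With deltaNp63alpha 9 were higher and 1 lower than in vector cells (median 0.09), and 2 were lower without deltaNp63beta replicate 1. Over all genes tested 14.5% were called in that comparison, 8.13% higher and 6.37% lower. With deltaNp63beta 3 were higher and 11 lower (median -0.20), and 5 were higher when deltaNp63beta replicate 1 was left out. Over all genes tested 41.3% were called there, near the share of this list. In the direct comparison 14 were lower with deltaNp63beta than with deltaNp63alpha and none higher among those tested (median -0.23). Without deltaNp63beta replicate 1, 1 was higher. That comparison called 32.9% of all genes tested, 15.5% lower and 17.4% higher.

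SMTN, which encodes smoothelin, a filament protein of contractile smooth muscle, averaged 3770 ± 118 with deltaNp63alpha, 2291 ± 128 with deltaNp63beta and 2635 ± 69.0 with vector. It rose by 0.52 ± 0.05 with deltaNp63alpha (adjusted p = 4.28e-05) and fell by 0.20 ± 0.05 with deltaNp63beta (adjusted p = 0.00787, both limma). MYH9, the main nonmuscle myosin heavy chain, averaged 37345 ± 1980 with deltaNp63alpha, 25046 ± 1080 with deltaNp63beta and 29749 ± 399 with vector. It too rose with deltaNp63alpha, by 0.33 ± 0.04 (adjusted p = 0.000423), and fell with deltaNp63beta, by 0.25 ± 0.04 (adjusted p = 0.000859, both limma). These 2 genes, like CAV1, lay above vector with 1 isoform and below it with the other.

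PALLD, which encodes the actin scaffold palladin, rose with both isoforms, by 0.71 ± 0.05 with deltaNp63alpha and 0.76 ± 0.05 with deltaNp63beta, as did the nonmuscle light chain gene MYL12B, by 0.34 ± 0.04 and 0.31 ± 0.04. VIM, the intermediate filament gene vimentin, fell by 0.18 ± 0.04 with deltaNp63alpha and 0.85 ± 0.04 with deltaNp63beta. PDLIM7, which encodes an actin-associated LIM protein, fell by 0.63 ± 0.07 with deltaNp63beta. ACTG1, cytoplasmic gamma-actin, rose by 0.19 ± 0.04 with deltaNp63alpha, a call lost with a change of sign after quantile normalization (adjusted p = 0.824), and fell by 0.37 ± 0.04 with deltaNp63beta.

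The nearest relatives of the members were read beside them. TAGLN2, the broadly expressed transgelin, averaged 19782 ± 579 with deltaNp63alpha, 16902 ± 492 with deltaNp63beta and 19336 ± 287 with vector, and fell by 0.19 ± 0.04 with deltaNp63beta while TAGLN rose. CNN3, the third calponin, rose by 0.27 ± 0.05 with deltaNp63alpha (limma adjusted p = 0.00387) and differed by 0.12 ± 0.05 with deltaNp63beta (adjusted p = 0.0648). TPM3 and TPM4, the tropomyosins of nonmuscle cells, fell with deltaNp63beta by 0.22 ± 0.04 and 0.26 ± 0.04. With deltaNp63alpha TPM3 changed by 0.16 ± 0.04, a call lost after quantile normalization and when vector replicate 1 or 1 of the deltaNp63alpha replicates 2 and 3 was removed (adjusted p up to 0.177), and TPM4 differed by 0.09 ± 0.04 without a call. ACTB differed by 0.05 ± 0.04 with deltaNp63alpha and -0.08 ± 0.04 with deltaNp63beta, neither called, although the first was called after quantile normalization (adjusted p = 0.000112) and the second with equal totals (adjusted p = 0.0356). ACTG2, enteric smooth muscle actin, was low, between 1.67 and 19.5 over the 9 libraries, and every vector library lay below every isoform library. Its differences of 1.18 with deltaNp63alpha and 1.38 with deltaNp63beta were not called (limma adjusted p = 0.218 and 0.08). The second was called after quantile normalization (adjusted p = 0.043).

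**Figure D4:**
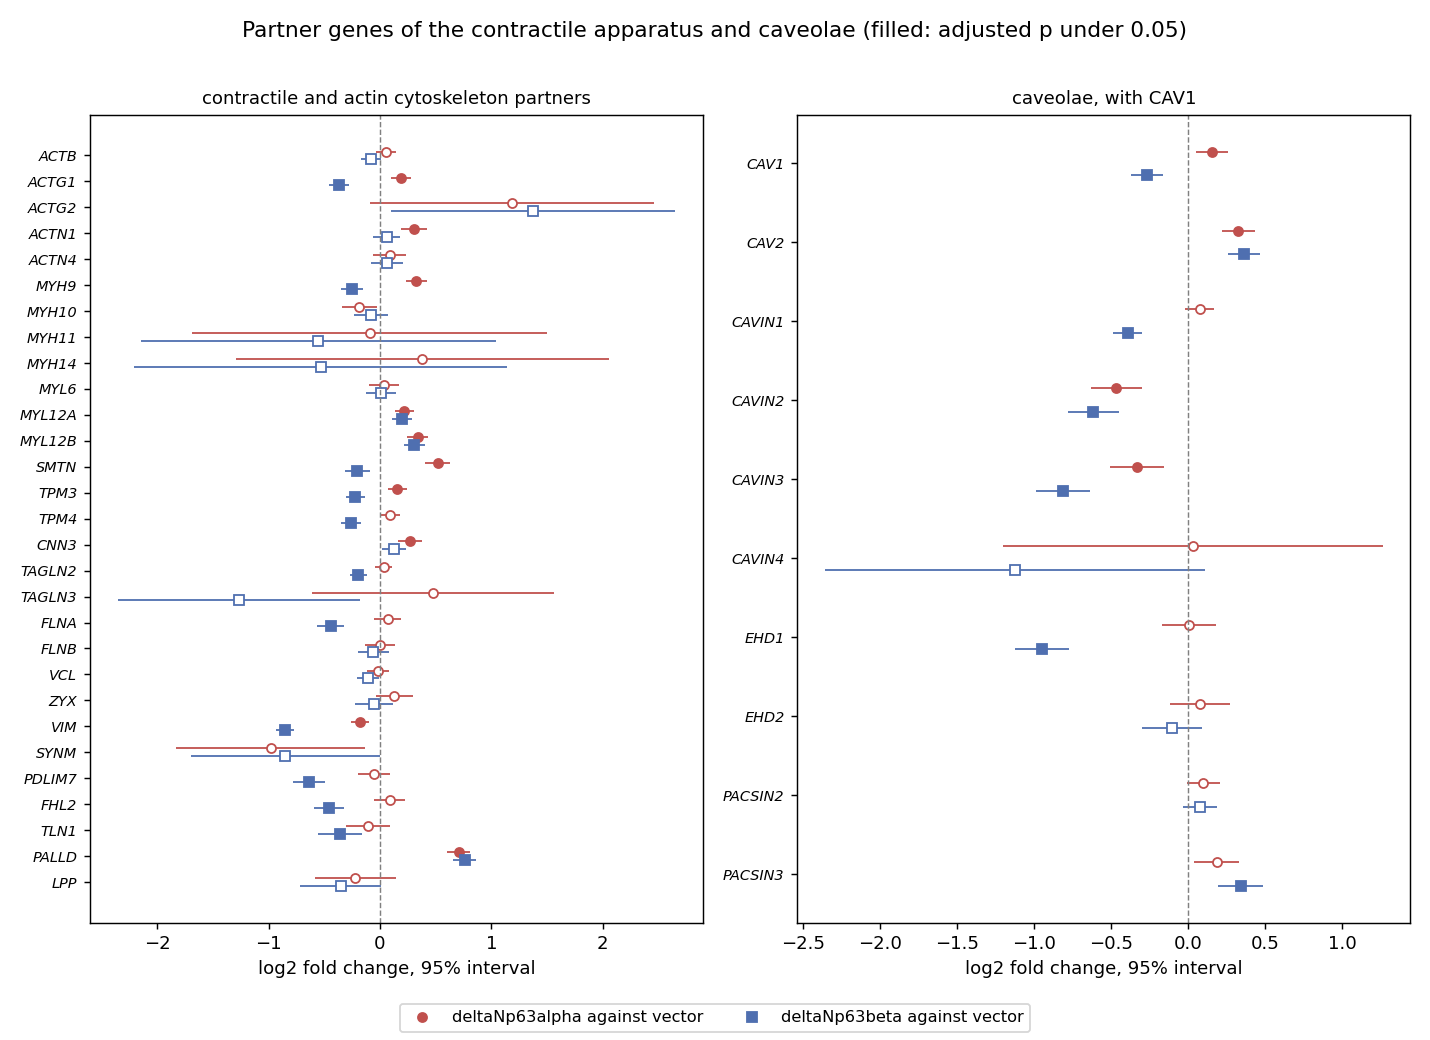
Log2 fold change against vector with 95% interval (x axis) for deltaNp63alpha (red circles) and deltaNp63beta (blue squares), for actin and myosin partners (left) and caveola genes with CAV1 (right); filled points have an adjusted p under 0.05. SMTN, MYH9 and CAV1 lie right of 0 with deltaNp63alpha and left of 0 with deltaNp63beta, while PALLD and CAV2 lie right of 0 with both.

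Caveola genes other than CAV1 numbered 10, of which 9 were tested. With deltaNp63alpha 1 was higher and 2 lower than in vector cells, and with deltaNp63beta 2 were higher and 4 lower. The shares called over all genes tested were 14.5% and 41.3%. CAV2, which pairs with CAV1 in the caveolar coat, averaged 5347 ± 252 with deltaNp63alpha, 5482 ± 269 with deltaNp63beta and 4260 ± 76.8 with vector. It rose by 0.33 ± 0.05 with deltaNp63alpha (adjusted p = 0.000901) and by 0.36 ± 0.05 with deltaNp63beta (adjusted p = 0.000121, both limma), so with deltaNp63beta CAV2 was higher and CAV1 lower. CAVIN1, the coat protein that caveolae need, averaged 10784 ± 299 with deltaNp63alpha, 7803 ± 408 with deltaNp63beta and 10230 ± 194 with vector, and fell by 0.39 ± 0.04 with deltaNp63beta (limma adjusted p = 3e-05). CAVIN2 fell with both isoforms, by 0.47 ± 0.08 with deltaNp63alpha and 0.61 ± 0.08 with deltaNp63beta. EHD1, a membrane-shaping ATPase, fell by 0.95 ± 0.08 with deltaNp63beta. CAVIN3 fell by 0.81 ± 0.08 with deltaNp63beta, and its fall of 0.33 ± 0.08 with deltaNp63alpha was not called when vector replicate 1, vector replicate 3 or deltaNp63alpha replicate 1 was removed (adjusted p up to 0.0731), which leaves 1 caveola gene lower there. Without vector replicate 3, 2 caveola genes were higher with deltaNp63alpha.

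SRF and its cofactors, 11 genes with 9 tested, had none called with deltaNp63alpha and 2 lower with deltaNp63beta, ELK3 by -0.53 ± 0.04 and FHL1 by -0.48 ± 0.09. Among all genes tested 14.5% were called with deltaNp63alpha and 41.3% with deltaNp63beta. With deltaNp63alpha, 1 of the 9 in limma had an unadjusted p under 0.05, the ETS factor gene ELK1. SRF averaged 1455 ± 24.5 with deltaNp63alpha, 1267 ± 56.2 with deltaNp63beta and 1377 ± 66.2 with vector. It differed from vector by 0.08 ± 0.06 with deltaNp63alpha and -0.12 ± 0.06 with deltaNp63beta, neither called, although the second was called with equal totals (adjusted p = 0.0487). In the direct comparison 3 genes of the list were lower with deltaNp63beta than with deltaNp63alpha, SRF itself by -0.20 ± 0.06 (limma adjusted p = 0.0203), a call lost without deltaNp63alpha replicate 2 or deltaNp63beta replicate 1 (adjusted p up to 0.0694). ELK3 and FHL1 were the other genes lower there, where 15.5% of all genes tested were called lower. The cofactor genes MRTFA and MRTFB overlapped between the 3 groups, from 1081 to 1377 for MRTFA and from 798 to 1240 for MRTFB over the 9 libraries. MYOCD, the cofactor that drives smooth muscle genes in muscle, was listed at 0 in all 9 libraries.

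The label of the cell line was read against marker lists. Of 18 basal and myoepithelial markers, 17 were tested, and 14 were higher with deltaNp63alpha with none lower, and 12 higher and 3 lower with deltaNp63beta. TP63, the gene of the introduced isoforms, is on this list and is 1 of the higher genes in both counts. Of all genes tested 8.13% were higher and 6.37% lower with deltaNp63alpha, and 21.8% higher and 19.5% lower with deltaNp63beta. The basal keratin gene KRT17 rose by 1.29 ± 0.05 with deltaNp63alpha and by 3.44 ± 0.05 with deltaNp63beta, and KRT5 by 0.74 ± 0.03 and 1.41 ± 0.03. KRT14, the keratin that pairs with KRT5, averaged 1383 ± 146 with deltaNp63alpha, 8009 ± 1638 with deltaNp63beta and 411 ± 32.5 with vector. Of the 12 smooth muscle and pericyte markers, 8 were tested, with 1 higher for deltaNp63alpha, and 1 higher and 2 lower for deltaNp63beta. On that list MYH11, its myosin, was low, between 2.23 and 20.6, as was DES, between 0 and 6.91. SMTN, also on it, was not low, averaging 3770 with deltaNp63alpha, 2291 with deltaNp63beta and 2635 with vector. Other genes on it were expressed, with RGS5 between 90.1 and 139.3 over the 9 libraries. NOTCH3, a receptor of mural cells that epithelia also express, averaged 97.3 ± 1.53 with deltaNp63alpha, 235.6 ± 86.3 with deltaNp63beta and 69.7 ± 25.0 with vector, and rose by 1.74 ± 0.32 with deltaNp63beta. MCAM, an adhesion molecule, fell by 0.34 ± 0.07 with deltaNp63beta. The list's summed level was between 4988 and 5202 with deltaNp63alpha, 3498 and 3812 with deltaNp63beta, and 3964 and 4244 with vector, most of it SMTN and MCAM. Its part in the members' changes was not tested.

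Luminal markers moved as well. Of 14, 11 were tested, with 2 higher and 2 lower for deltaNp63alpha, and 4 higher and 3 lower for deltaNp63beta. These comparisons called 14.5% and 41.3% of all genes tested. EPCAM, an epithelial adhesion molecule, averaged 311.5 ± 33.3 with deltaNp63alpha, 1424 ± 78.2 with deltaNp63beta and 172.8 ± 15.8 with vector. It rose by 0.84 ± 0.10 with deltaNp63alpha and by 3.04 ± 0.10 with deltaNp63beta. The tight junction genes CLDN7 and CLDN4 rose with deltaNp63beta by 3.16 ± 0.11 and 3.18 ± 0.29, and the keratin gene KRT18 by 0.33 ± 0.04. Lower with deltaNp63beta were KRT19, PRLR and KRT7, at -2.04, -2.52 and -0.13 (limma adjusted p = 0.00429, 0.0248 and 0.02). The KRT19 call held in all 12 other scalings and left-out libraries, while those of PRLR and KRT7 were lost in 5 and 3 of them. KRT8 fell with deltaNp63alpha by 0.30 ± 0.05. The other calls with deltaNp63alpha depended on single libraries: CLDN7, at 0.42 ± 0.11, was lost when replicate 2 or 3 of either group was removed (adjusted p up to 0.0749), and KRT19, at -1.52 ± 0.46, was lost in 7 of 12 other scalings and left-out libraries (adjusted p up to 0.169). These 7 were the removal of any 1 deltaNp63alpha library, any 1 vector library or deltaNp63beta replicate 2. The lower count with deltaNp63beta was 1 after quantile normalization or without vector replicate 2.

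Fibroblasts can also express ACTA2 and TAGLN. Of 9 fibroblast markers, 6 were tested, with 3 lower for deltaNp63alpha, and 3 higher and 2 lower for deltaNp63beta. Calls over all genes tested made up 14.5% and 41.3%. DCN, the matrix proteoglycan decorin, averaged 349.6 ± 8.07 with deltaNp63alpha, 165.9 ± 29.3 with deltaNp63beta and 1211 ± 2.23 with vector. It fell by 1.79 ± 0.11 with deltaNp63alpha and fell by 2.87 ± 0.11 with deltaNp63beta. FAP, a surface protease, fell by 0.46 ± 0.10 with deltaNp63alpha and 0.71 ± 0.10 with deltaNp63beta. FBLN1, the matrix protein fibulin-1, fell by 0.35 ± 0.04 with deltaNp63alpha and rose by 0.43 ± 0.04 with deltaNp63beta. MFAP5, a microfibril gene, rose by 1.51 ± 0.26 with deltaNp63beta. COL1A1 was called higher with deltaNp63beta, at 0.52 (limma adjusted p = 0.0286). That call was lost without vector replicate 2 or 3 or any single deltaNp63beta library (adjusted p up to 0.0886). COL1A1 was between 159.9 and 358.1 over the 9 libraries, while PDGFRA, COL1A2 and COL3A1 reached at most 29.4, 13.4 and 3.08. The list summed to between 8355 and 8519 with deltaNp63alpha, 13045 and 14105 with deltaNp63beta, and 11432 and 11866 with vector, most of it FBLN1, and its part in the members' changes was not tested.

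Endothelial and leukocyte markers were partly expressed. Of 7 endothelial markers 3 were tested, with 1 lower for deltaNp63alpha, PECAM1 (none without deltaNp63alpha replicate 1 or 3 or vector replicate 2), and 3 lower for deltaNp63beta. With deltaNp63beta TEK fell by 1.88 ± 0.36, PECAM1 by 1.15 ± 0.28 and KDR by 0.62 ± 0.16. Of 7 leukocyte markers 5 were tested, with 2 lower for deltaNp63alpha, and 2 higher and 3 lower for deltaNp63beta. Beside both lists, 14.5% of all genes tested were called with deltaNp63alpha and 41.3% with deltaNp63beta. ITGB2, an integrin chain, averaged 285.6 ± 34.0 with deltaNp63alpha, 148.5 ± 11.9 with deltaNp63beta and 543.2 ± 25.7 with vector. It fell by 0.93 ± 0.11 with deltaNp63alpha and fell by 1.87 ± 0.11 with deltaNp63beta. CD68, a lysosomal protein, fell by 0.40 ± 0.09 with deltaNp63alpha and 0.86 ± 0.09 with deltaNp63beta. CD14 rose by 2.77 ± 0.41 and LAPTM5 by 0.96 ± 0.16 with deltaNp63beta. CDH5 and PTPRC reached at most 1.84 and 4.22 in any library.

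For each member called in both comparisons with vector, the tested genes with the most similar pattern were listed by Pearson r of log2(value + 1) over the 9 libraries. The libraries fall into 3 groups, so r mostly follows the group means and is given as a description over 14053 genes compared. TAGLN was most like ABRACL (r = 0.997) and SH3RF2 (0.994), CNN2 most like MDFI (0.997) and KRT6A (0.993), and TPM2 most like PLOD2 (0.996) and NPRL2 (0.993). CALD1 was most like GRB7 (0.988) and PATJ (0.985), CAV1 most like IGF2BP2 (0.979) and OSBP2 (0.975), and ACTA2 most like TIMP2 (0.962) and SDF4 (0.954). The members themselves were left out of the search.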

How the data were processed

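Per the labels, poly(A) RNA of 9 MCF10A cultures was sequenced, 3 per group, described as biological replicates. The submitters' processing notes name kallisto 0.46.2, DESeq2 and GRCh38, with no role or order. The deposited values are a normalized signal, estimated counts per Ensembl gene that the authors scaled between libraries. Whether strand was used is not given in the sources used here. Whole fragments were not recovered: 59.9% to 63.5% of values up to 20 steps were whole within 0.1 step, so no count test was run.

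From these values, log2(value + 1) was fitted in limma 3.58.1 (R 4.3.3) with trend and robust moderation over all 9 libraries, with no replicate block. The filter kept the 15108 genes that reached a value of 10 in 3 or more libraries. P-values were adjusted by Benjamini-Hochberg over all of them, at a threshold of 0.05. They measure the spread between these cultures. The procedure was tested on simulated data. Gene positions and lengths came from GENCODE release 29, promoters from RefSeq. Beside the 10 members, the text names, of each gene list described, called genes among the 4 with the smallest adjusted p, preset relatives, and the most similar genes for members called with both isoforms. PDGFRA, COL1A1, COL1A2, COL3A1, RGS5, CDH5, PTPRC, ELK1, PRLR and KRT7 were named after their values were seen. Members and lists were chosen with earlier results of these data known. Alternatives changed the filter, pseudocount, scaling, groups fitted, block, moderation, library weights and left-out libraries. Among the scalings, rescaling by median-of-ratios factors left the calls over all genes nearly as in the main fit. With deltaNp63alpha both gave 1229 higher and 963 lower, so it was hardly a separate setting. Protein sequences were not used here. One gene list on the control of contraction is not reported here.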

Additional observations from a re-analysis of the deposited data

How the results depend on the processing

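No member changed direction with a call under the alternatives run. When the test was set against a 1.5-fold change, members higher with deltaNp63alpha fell to 1 and members lower to 0, those higher and lower with deltaNp63beta were 1 and 1, and those higher and lower with deltaNp63beta against deltaNp63alpha were 0 and 1. TAGLN against vector and MYLK with deltaNp63beta were the ones still called. Without trend and robust moderation, 2 members were higher with deltaNp63alpha than with vector, and 1 was higher with deltaNp63beta than with deltaNp63alpha. Leaving out 1 library at a time gave 3 to 5 members higher with deltaNp63alpha, 3 to 4 lower with deltaNp63beta, and 1 to 3 higher with deltaNp63beta than with deltaNp63alpha (1 without deltaNp63alpha replicate 2 or 3, or deltaNp63beta replicate 2). Counts over all genes stayed within 1.5 times of their main value. Same-numbered libraries did not deviate together (correlation of residuals from -0.117 to 0.0813 over 9 pairs), and 2 of 9 libraries correlated best with their own number. With the replicate block the counts over all genes were 1833 for deltaNp63alpha, 5939 for deltaNp63beta and 4583 for deltaNp63beta against deltaNp63alpha. Under that block CAV1 with deltaNp63alpha (limma adjusted p = 0.0709), ACTA2 with deltaNp63beta (0.0808) and MYL9 between the isoforms (0.0538) were not called. CNN1 did not pass the filter and has no test. MYLK, at 30.0 to 230.2, had the largest SE of the 9 members tested.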
